A study of Mus musculus with 5 samples.

Results

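The interferon-gamma receptor, the STAT transcription factors and the SOCS inhibitors form a signalling chain from a cytokine at the cell surface to gene transcription and back. The 9 genes described here are Ifngr1 and Ifngr2, which encode the receptor chains, Stat2, Stat3, Stat4, Stat5a and Stat6, and the inhibitor genes Socs1 and Socs3. They were chosen by name in the authors' deposited Cuffdiff table, where each was found in 1 of the 24982 rows, and all 9 rows were tested. RNA was sequenced from macrophages of mouse tumors grown from the fibrosarcoma line 9609. The MEK1-hi group holds 3 libraries, from MEK1-hi tumors with MEK1-hi exosomes (small vesicles shed by cells), and the MEK1-low group holds 2 libraries, from MEK1-low tumors with MEK1-low (GFP) exosomes. MEK1 is a kinase of the RAS-RAF-MEK-ERK cascade, and both groups share the 9609 tumor line. The labels give no strain, age or isolation method for the macrophages. They also do not say whether each library came from its own animal, so the p and q values below cover the spread between libraries, which may be technical only.

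In this pathway, a cytokine brings receptor chains together, the Janus kinases bound to them phosphorylate the receptor, and STAT proteins dock there, are phosphorylated in turn, pair up and move to the nucleus. Each STAT serves its own set of cytokines, and macrophages are known to shift between activated and repair-type states under interferon-gamma and interleukin-4. SOCS genes are themselves switched on by STATs, and their proteins block the kinases or the receptors, which closes a negative feedback loop. Much of the pathway's activity lies in phosphorylation, which transcript levels do not measure.

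Socs1 was the gene of the 9 that rose in MEK1-hi macrophages by Cuffdiff, 2.45-fold, to 31.8 FPKM in MEK1-hi against 13.0 FPKM in MEK1-low. FPKM is a fragment count normalised for transcript length and library size. The other 8 genes did not pass the test, and their log2 fold changes (MEK1-hi over MEK1-low) lay between 0.09 for Stat6 and 0.55 for Socs3. The authors' deposited table holds 1 pooled FPKM per group, so no value per library and no SD can be given, and genes were called at the table's q (the adjusted p) of 0.05. Of 12311 tested rows, 0.999% were called higher in MEK1-hi, 0.325% lower and 1.32% in either direction, and 1 of the 9 genes was called higher and 0 lower. With p unadjusted and under 0.05 there were 3 of the 9 higher and 0 lower, against 3.5% of tested rows higher, 2.58% lower and 6.08% in either direction. The median log2 fold change of the 9 was 0.25, and that of the 11353 tested rows with at least 1 FPKM in either group was -0.02. All 9 genes had a positive log2 fold change, as did 46.5% of those rows. The median of such rows varied with level, from -0.12 at a mean of 1 to 2 FPKM to 0.10 at 256 to 512 FPKM. Among rows within 2-fold of the gene's mean level, 23.1% had a larger log2 fold change than Ifngr1 and 19.7% than Ifngr2. This share was 37.0% for Stat3, 37.7% for Stat6, 7.89% for Stat4 and 14.9% for Stat5a, with those of the other members given below. When both groups were rescaled to the same FPKM sum, 8 of the 9 stayed above 0 and Stat6 came to -0.01. Of the 11353 rows with at least 1 FPKM, 3471 were above 0 after the same rescaling.

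**Figure D1:**
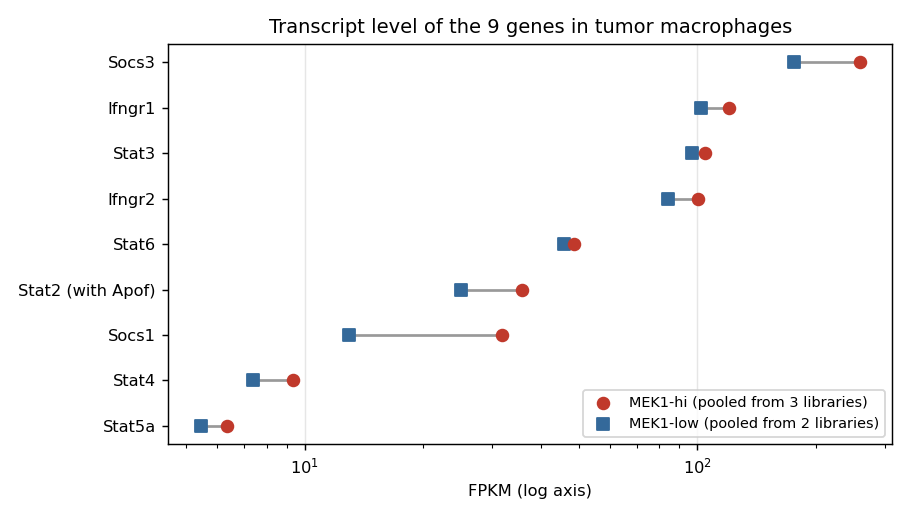
Transcript level of the 9 genes in FPKM (log axis), with circles for the pooled MEK1-hi value (3 libraries), squares for the pooled MEK1-low value (2 libraries) and genes ordered by MEK1-hi level. Every circle lies right of its square, and the distance is widest for Socs1, 31.8 FPKM in MEK1-hi against 13.0 FPKM in MEK1-low.

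The order of the levels was the same in both groups. Socs3 was the most abundant, followed by Ifngr1, Stat3, Ifngr2, Stat6, Stat2, Socs1, Stat4 and Stat5a. Without values per library, neighbours in this order cannot be tested against each other, and in MEK1-hi Stat3 (105 FPKM) and Ifngr2 (100.6 FPKM) differed by little. In the authors' deposited table, 4 of the 9 were above 80 FPKM in both groups, and Stat4 and Stat5a were below 10 FPKM in both.

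The macrophage identity in the labels was checked against 9 markers of that cell type. All were present and 0 were called or had an unadjusted p under 0.05. Their log2 fold changes (MEK1-hi over MEK1-low) lay above 0 for 5 and below 0 for 4, with a median of 0.08. The most abundant of them, given next, were among those above 0. Lyz2, the lysozyme gene of myeloid cells, had 6372 FPKM in MEK1-hi and 4999 FPKM in MEK1-low, and the complement gene C1qa had 3758 FPKM in MEK1-hi and 3261 FPKM in MEK1-low. C1qb, the partner chain gene of C1qa, had 3650 FPKM in MEK1-hi and 3163 FPKM in MEK1-low. Markers of other cells were also in the libraries, and some of them were called different between the groups. The summed FPKM of 9 NK cell markers was 36.6 in MEK1-hi and 12.0 in MEK1-low, with 2 called higher. Of that sum, Klrk1 alone made up 18.1 FPKM in MEK1-hi and 5.27 FPKM in MEK1-low. Among the 9, 5 were under 1 FPKM in both groups, Ncr1 being 1 of them. The 8 T cell markers summed to 14.2 FPKM in MEK1-hi and 8.97 FPKM in MEK1-low, with 0 called and 1 higher at an unadjusted p under 0.05. The 6 dendritic cell markers summed to 53.5 FPKM in MEK1-hi and 42.6 FPKM in MEK1-low, with Clec9a and Xcr1 called higher, and an unadjusted p under 0.05 was found for 3 higher and 1 lower. The lower one, Cd209a, had 4.64 FPKM in MEK1-hi and 9.68 FPKM in MEK1-low, and Ccr7, which was not called, made up 32.1 FPKM of the sum in MEK1-hi and 26.7 FPKM in MEK1-low. The 8 fibroblast and tumor markers summed to 740 FPKM in MEK1-hi and 1216 FPKM in MEK1-low, all 8 lay below 0, and Thy1 was called lower. The 6 neutrophil markers summed to 63.3 FPKM in MEK1-hi and 55.9 FPKM in MEK1-low. Csf3r alone made up 36.6 FPKM in MEK1-hi and 26.2 FPKM in MEK1-low. Of the 4 tested neutrophil markers, 2 lay above 0 and 2 below (median log2 fold change -0.13). The 5 B cell markers summed to 9.59 FPKM in MEK1-hi and 8.57 FPKM in MEK1-low. Of that, Cd79b made up 8.91 FPKM in MEK1-hi and 8.05 FPKM in MEK1-low, and the other 4 were under 1 FPKM in both groups. Neither list had a called gene, and an unadjusted p under 0.05 was found for 1 neutrophil marker higher and 1 lower and for 0 B cell markers. No marker in these lists was at 0 in either group. In bulk RNA, fewer cells of a type and less RNA per cell cannot be told apart. The part of these other cells in the values of the 9 genes was not tested.

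Both chains of the interferon-gamma receptor were abundant and their levels were close between the groups. Ifngr1 encodes the chain that binds interferon-gamma and carries JAK1, and it lies on mm10 chromosome 10, 19591949 to 19610227, on the plus strand. It had 120 FPKM in MEK1-hi and 102 FPKM in MEK1-low, a log2 fold change of 0.24 (Cuffdiff test statistic 0.63, q = 0.9998 in the authors' deposited table). The level in MEK1-hi was above that of 94.4% of the tested rows with at least 1 FPKM. Ifngr2 encodes the chain that carries JAK2, and it lies on chromosome 16, 91547059 to 91564007, on the plus strand. It had 100.6 FPKM in MEK1-hi and 84.3 FPKM in MEK1-low, a log2 fold change of 0.25 (statistic 0.69, q = 0.9998 in the authors' deposited table). The chains kept nearly the same proportion to each other, since Ifngr1 was 1.20 times Ifngr2 in MEK1-hi and 1.21 times in MEK1-low. Among rows with a mean FPKM within 2-fold of Ifngr1, no row with a log2 difference under 0.87 was called, and the same limit holds for Ifngr2, so differences of the observed size were below what was called at these levels.

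The ligand was near the bottom of the range. Ifng, the interferon-gamma gene, had 1.15 FPKM in MEK1-hi and 0.347 FPKM in MEK1-low, with an unadjusted Cuffdiff p of 0.0227 and q = 0.548 in the authors' deposited table. It is a product of T and NK cells, whose markers are given above, and it falls outside the rule for naming genes and was picked after its values were seen. The wider list of receptors and ligands had 28 tested genes of 30. Of these, 1 was called higher and 1 lower, and an unadjusted p under 0.05 was found for 8 higher and 1 lower. Their median log2 fold change was 0.20, and equal FPKM sums brought it to 0.10. Il12rb1, a chain of the interleukin-12 receptor, rose to 11.0 FPKM in MEK1-hi, against 2.84 FPKM in MEK1-low (statistic 3.86, q = 0.00676 in the authors' deposited table). Il4, the interleukin-4 gene, was listed at 0 in MEK1-hi and at 0.603 FPKM in MEK1-low, and was called lower by Cuffdiff (q = 0.00676 in the authors' deposited table), at a level under 1 FPKM in both groups. Its row holds no usable test statistic, and no fold change can be formed with 0 in MEK1-hi. The call of a lower gene in this list rests on that row.

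The list that holds the kinases linking receptor and STAT had 0 of 10 tested members called, with 1 at an unadjusted p under 0.05. The shares over all tested rows were 1.32% and 6.08%, so a count of 0 called does not set the list apart. This list joins the Janus kinases with adaptors and partners. Jak1 had 52.6 FPKM in MEK1-hi and 52.8 FPKM in MEK1-low, a log2 fold change of -0.01. The 4 Janus kinase genes, a part of this list, ranged from -0.01 to 0.35 on the log2 scale, with a median of 0.29. The value of 0.35 is of the Jak3 row, which is shared with Insl3. The median of the whole list was 0.13, or 0.03 after rescaling. Nmi, which encodes a STAT-binding protein, was the member with an unadjusted p under 0.05 (32.3 FPKM in MEK1-hi, 21.9 FPKM in MEK1-low, p = 0.036, q = 0.697 in the authors' deposited table).

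Of the 5 STAT genes, 0 were called, and Stat2 had an unadjusted Cuffdiff p under 0.05 (0.0275). Over all tested rows, 1.32% were called and 6.08% had an unadjusted p under 0.05. STAT2 pairs with IRF9 and another STAT in the complex that carries type I interferon signals. The Stat2 row of the authors' deposited table is shared with Apof, an apolipoprotein gene that lies directly upstream on the same strand, and its FPKM is for both (chromosome 10, 128268699 to 128292853). It stood at 35.8 FPKM in MEK1-hi and 25.0 FPKM in MEK1-low, a log2 fold change of 0.51 (statistic 1.40, q = 0.607 in the authors' deposited table). Among the 3294 rows within 2-fold of its mean level, 3.58% had a larger log2 fold change. Its partner gene Irf9 had 38.9 FPKM in MEK1-hi and 31.2 FPKM in MEK1-low, a log2 fold change of 0.32 (q = 0.9998 in the authors' deposited table).

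Stat3 was the most abundant of the 5 and hardly differed. STAT3 carries interleukin-6 and interleukin-10 signals. Stat3 had 105 FPKM in MEK1-hi and 96.9 FPKM in MEK1-low, a log2 fold change of 0.11 (statistic 0.27, q = 0.9998 in the authors' deposited table), and lies on chromosome 11, 100886806 to 100939540, on the minus strand. Stat6, which serves interleukin-4 and interleukin-13, had 48.7 FPKM in MEK1-hi and 45.7 FPKM in MEK1-low, a log2 fold change of 0.09 (statistic 0.19, q = 0.9998 in the authors' deposited table) that turned to -0.01 after rescaling. Its row spans chromosome 10, 127642986 to 127666703, and overlaps Nab2 on the other strand in GENCODE, and no source used here gives the strand setting of the counting. The ratio of Stat3 to Stat6 was 2.15 in MEK1-hi and 2.12 in MEK1-low.

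Stat4 and Stat5a were the least abundant. STAT4 is the main carrier of interleukin-12 signals in T and NK cells. Stat4 (chromosome 1, 51987148 to 52107189, plus strand) had 9.35 FPKM in MEK1-hi and 7.39 FPKM in MEK1-low, a log2 fold change of 0.34 (statistic 0.74, q = 0.9998 in the authors' deposited table). In GENCODE its row overlaps Gm28177 on the same strand and the pseudogene Gm3940 on the other. STAT5A carries signals of GM-CSF and of several interleukins. Stat5a (chromosome 11, 100859351 to 100885169, plus strand) had 6.36 FPKM in MEK1-hi and 5.46 FPKM in MEK1-low, a log2 fold change of 0.22 (statistic 0.50, q = 0.9998 in the authors' deposited table). The end of the Stat5a row, from 100885098, overlaps the far more abundant Stat3 on the other strand in GENCODE. The strand setting of the counting is not given for these rows either.

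Stat4 stood above all T cell and NK cell markers on the lists except Klrk1 in MEK1-hi. The log2 fold changes of these markers lay on both sides of that of Stat4. The T cell receptor gene Cd3g had 3.64 FPKM in MEK1-hi and 2.07 FPKM in MEK1-low, Cd8a had 2.88 FPKM in MEK1-hi and 1.15 FPKM in MEK1-low, and Cd2 had 1.82 FPKM in MEK1-hi and 1.76 FPKM in MEK1-low, none of them called by Cuffdiff. Klrk1, a receptor gene of NK and CD8 T cells, rose to 18.1 FPKM in MEK1-hi, against 5.27 FPKM in MEK1-low (q = 0.00676 in the authors' deposited table). Tbx21, the T-bet gene, rose to 3.42 FPKM in MEK1-hi, against 0.825 FPKM in MEK1-low (q = 0.0202 in the authors' deposited table). The granule genes Nkg7 and Gzmb had 8.66 and 4.66 FPKM in MEK1-hi, and 3.00 and 1.96 FPKM in MEK1-low, and neither was called. Ncr1, a defining NK cell marker, was near 0 in both groups, at 0.0889 FPKM in MEK1-hi and 0.0737 FPKM in MEK1-low. The median log2 fold change was 1.66 over the 6 tested NK cell markers and 0.82 over the 7 tested T cell markers. How much of the Stat4 signal came from lymphocytes was not tested.

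**Figure D2:**
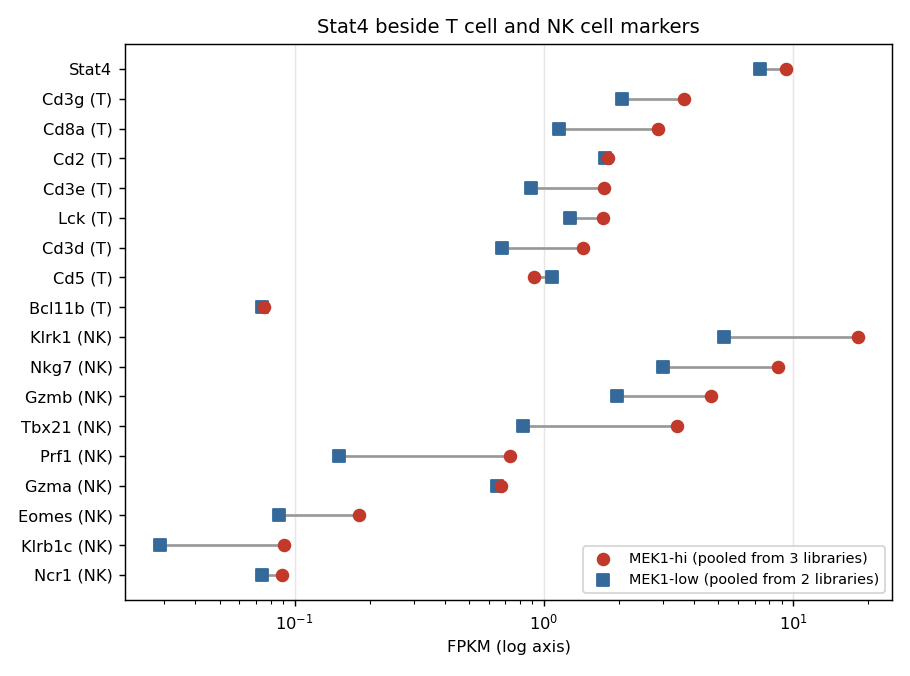
FPKM (log axis) of Stat4, of 8 T cell markers and of 9 NK cell markers, with circles for the pooled MEK1-hi value and squares for the pooled MEK1-low value. Stat4 lies at 9.35 FPKM in MEK1-hi and 7.39 FPKM in MEK1-low, while Klrk1 lies at 18.1 FPKM in MEK1-hi and 5.27 FPKM in MEK1-low.

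The inhibitor genes had the largest log2 fold changes of the 9, but Socs3 (0.55) was close to Stat2 (0.51). The test statistic of Stat2 (1.40) was above that of Socs3 (1.36). SOCS1 blocks Janus kinases at the interferon-gamma receptor and is known to be induced by interferon-gamma in macrophages. Socs1 (chromosome 16, 10783809 to 10785536, minus strand) had 31.8 FPKM in MEK1-hi and 13.0 FPKM in MEK1-low, a log2 fold change of 1.30 (statistic 2.89, p = 5e-05, q = 0.00676 in the authors' deposited table). That p is the smallest in the authors' deposited table and is shared by 91 rows. Among the 3845 rows within 2-fold of its mean level, 1.33% were called and 0.468% had a larger log2 fold change. The call was lost under the Benjamini-Yekutieli adjustment of the authors' p values (adjusted p = 0.0676) and with p taken from their deposited statistic and a normal distribution (adjusted p = 0.618).

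SOCS3 acts mainly at the shared receptor chain of the interleukin-6 family, and Socs3 is a target of STAT3. Socs3 (chromosome 11, 117966087 to 117969366, minus strand) had 259 FPKM in MEK1-hi and 177 FPKM in MEK1-low, a log2 fold change of 0.55 (statistic 1.36, unadjusted p = 0.0323, q = 0.665 in the authors' deposited table). It was not called. In the 566 rows within 2-fold of its mean level, no row with a log2 difference under 0.84 was called, and 7.42% had a larger log2 fold change. Socs3 exceeded Socs1 8.13-fold in MEK1-hi and 13.6-fold in MEK1-low, so the pair was closer in level in MEK1-hi, a difference that was not tested. Set against the receptor, Socs1 was 0.264 times Ifngr1 in MEK1-hi and 0.127 times in MEK1-low.

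**Figure D3:**
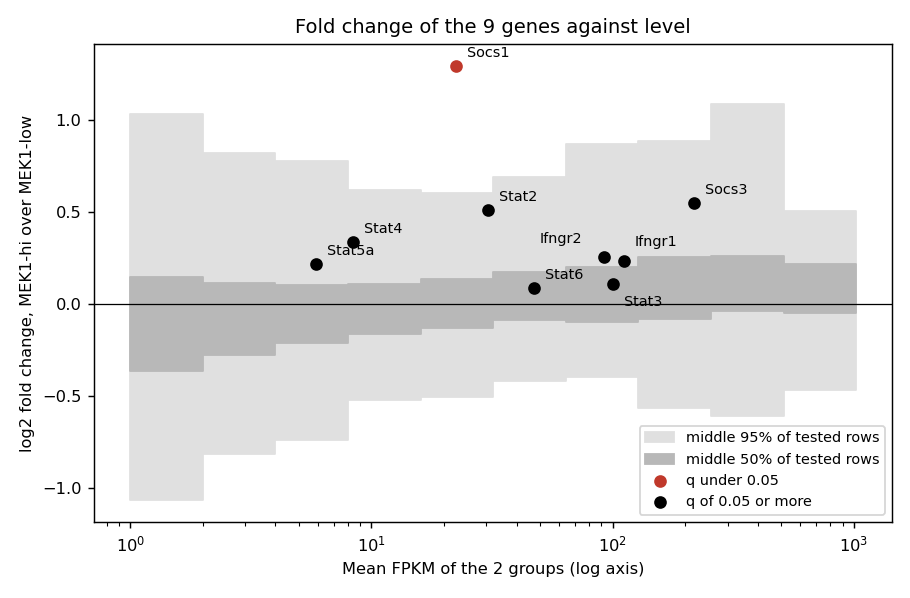
Log2 fold change (MEK1-hi over MEK1-low) of the 9 genes against their mean FPKM (log axis), over grey bands that hold the middle 95% and 50% of tested rows at each level. Socs1, the called gene, lies above both bands at 1.30, and the other 8 lie between 0.09 and 0.55.

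The stretches upstream of Socs1 and Socs3 are shown because these genes differed most and carry different sequence matches. They are the 250 bases before the RefSeq start sites (GRCm38.p6, the build of mm10), at chr16:10785537-10785786 and chr11:117969367-117969616, both on the minus strand. Capitals mark matches to the GAS motif of STAT dimers, TTCNNNGAA, the same motif with a spacer of 4 bases in place of NNN, or the IRF element, which is GAAA, any 2 bases and GAAA again. Both strands were searched.
Socs1: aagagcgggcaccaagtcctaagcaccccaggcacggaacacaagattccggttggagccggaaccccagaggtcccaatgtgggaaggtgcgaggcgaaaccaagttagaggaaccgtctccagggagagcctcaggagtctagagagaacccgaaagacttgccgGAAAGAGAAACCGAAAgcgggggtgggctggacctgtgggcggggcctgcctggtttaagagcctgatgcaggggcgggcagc
Socs3: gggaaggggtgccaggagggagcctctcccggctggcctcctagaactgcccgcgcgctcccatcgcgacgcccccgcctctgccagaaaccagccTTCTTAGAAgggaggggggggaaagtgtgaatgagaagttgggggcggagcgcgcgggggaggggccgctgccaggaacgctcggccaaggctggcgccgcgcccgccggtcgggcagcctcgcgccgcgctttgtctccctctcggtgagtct
The capitals of Socs1 are a pair of overlapping IRF elements that begin 83 and 77 bases before the start site. The capitals of Socs3 are a GAS match that begins 154 bases before it. GENCODE begins the coding Socs3 transcript 180 bases further downstream than RefSeq does here, so the bases next to that start are not in the window.

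Matches in the other members are shown as short stretches on the plus strand, at chr10:128270273-128270300 for Stat2, chr1:52008140-52008155 for Stat4 (the more downstream of its RefSeq starts) and chr16:91546965-91546980 for Ifngr2.
Stat2: tggTTTCAGTTTCctTTCCCTAGAActc
Stat4: tcaGAAAGTGAAAttt
Ifngr2: cggTTCCCGGGAAcac
Stat2 holds an IRF element on the other strand followed by a match with the 4-base spacer, Stat4 an IRF element, and Ifngr2 a match with the 4-base spacer. All 9 genes matched the RefSeq table, with 11 windows of 300 bases. Over them, the GAS motif was in 1 gene (Socs3), the motif with a 4-base spacer in 2 (Stat2 and Ifngr2) and the IRF element in 3 (Socs1, Stat2 and Stat4). Counted per window, these were 1, 2 and 3 of the 11. Over all 32851 windows the shares, also per window, were 8.30% for the GAS motif, 6.95% for the 4-base spacer and 3.44% for the IRF element. The IRF element was added to the search after the data were seen, and no count was tested against these shares. These are matches of letters and not binding sites, and the windows of Ifngr1, Stat3, Stat5a and Stat6 hold none of the 3 motifs.

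Among 23 other negative regulators of the pathway, 0 were called, and 10 lay above 0 and 13 below (median log2 fold change -0.01). Over all tested rows 1.32% were called, and 46.5% of rows with at least 1 FPKM lay above 0. These counts therefore do not set the list apart from other rows. At an unadjusted p under 0.05 there was 1, Ptpn6, which encodes the phosphatase SHP-1 of blood cells (143 FPKM in MEK1-hi, 89.8 FPKM in MEK1-low, p = 0.00515, q = 0.214 in the authors' deposited table). Ptprc, the gene of the phosphatase CD45, had 159 FPKM in MEK1-hi and 114 FPKM in MEK1-low and was not called. The other 6 genes of the SOCS family, Cish, Socs2, Socs4, Socs5, Socs6 and Socs7, were singled out after their values were seen. They had 1.64 to 11.3 FPKM in MEK1-hi and 2.18 to 9.85 FPKM in MEK1-low, below Socs1 and Socs3 in both groups, and log2 fold changes from -0.41 to 0.21. Elob, Eloc, Cul5 and Rnf7, which encode subunits of the ubiquitin ligase that the SOCS box recruits and were picked in the same way, ranged from -0.17 to 0.07.

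Target genes of these pathways were set beside the members. Of 20 interferon-gamma target genes, 18 were called higher and 0 lower by Cuffdiff, with a median log2 fold change of 1.17, next to 0.24 and 0.25 for the receptor chains and 1.30 for Socs1. Gbp4, Igtp, Gbp2 and Iigp1, GTPases that act against intracellular pathogens, rose 4.21-fold, 3.67-fold, 3.24-fold and 2.84-fold. This list and the target lists that follow were chosen with earlier results of these data known, and their directions are not independent evidence. Of 15 interleukin-4 target genes, 3 were called lower and 0 higher (median -0.61), next to 0.09 for Stat6, and 6 were lower and 1 higher with an unadjusted p under 0.05. Mgl2, a lectin gene, fell by 2.38 on the log2 scale to 6.76 FPKM in MEK1-hi, against 35.1 FPKM in MEK1-low. The chemokine gene Ccl17 and the arginase gene Arg1 fell by 2.09 and 1.62 on the log2 scale. Of 15 tested interleukin-6 and interleukin-10 target genes, 1 was called higher and 0 lower (median 0.24), next to 0.11 for Stat3, and 3 were higher with an unadjusted p under 0.05. That gene was Cebpb, a transcription factor, which rose to 125 FPKM in MEK1-hi, against 63.4 FPKM in MEK1-low (statistic 2.65, q = 0.00676 in the authors' deposited table).

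**Figure D4:**
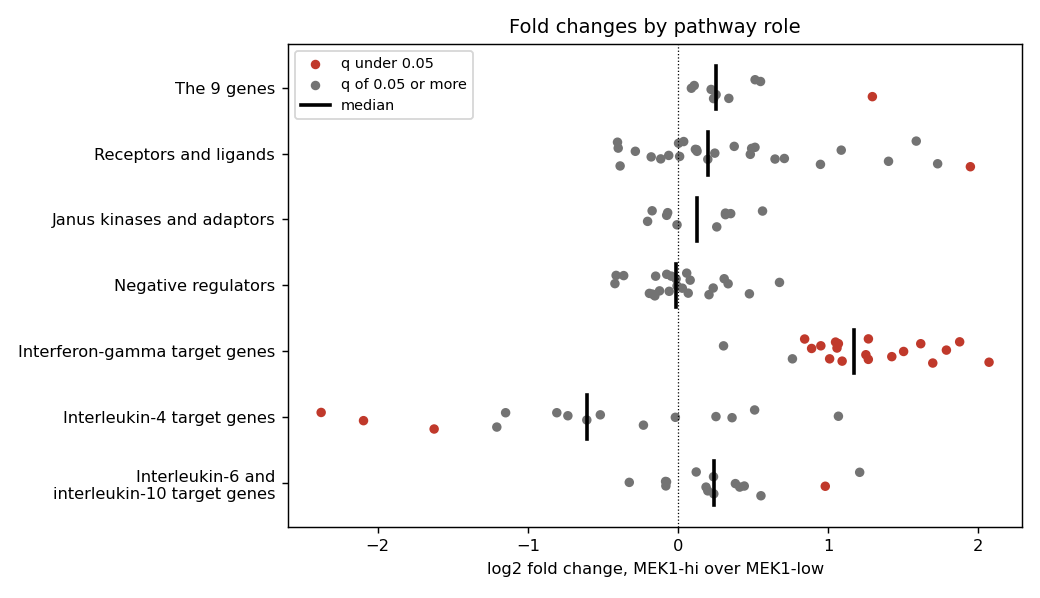
Log2 fold change (MEK1-hi over MEK1-low) of the 9 genes and of the tested genes of 6 pathway lists that were above 0 FPKM in both groups, 1 point per gene, with the median as a bar and called genes in red. The interferon-gamma targets lie to the right (median 1.17) and the interleukin-4 targets mostly to the left (median -0.61). The receptors and ligands, the Janus kinases with adaptors, and the negative regulators have medians of 0.20, 0.13 and -0.01.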

How the data were processed

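RNA-seq of 5 tumor macrophage libraries (3 MEK1-hi, 2 MEK1-low) was used. Per the labels' protocols, TRIzol-extracted RNA (750 ng) went into a stranded poly(A) kit and was sequenced as paired reads of 100 bases. The tools named in the submitters' processing notes are FastQC 0.73, TopHat, Cufflinks and Cuffdiff, with the build mm10. Annotation, strand setting and each tool's role are not given. The single table that the authors deposited is Cuffdiff output, with 1 pooled FPKM per group, a test statistic (a score deposited by the authors) and the p-values and q-values as deposited. Depth per library is unknown, so no interval is given. With 1 FPKM value per group, neither a count model nor a test over replicates could be fitted.

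The log2 fold change was computed from the deposited FPKM without a pseudocount, because 515 cells of the deposited column held spreadsheet error text. Genes were called at the deposited q of 0.05, adjusted over 12311 tested rows. Rows within 2-fold of a member's mean FPKM, with at least 1 FPKM in either group, served as its level-matched background. The members and lists (113 genes in 6 pathway lists, 52 in 7 marker lists) were chosen with earlier results of these data known. Named genes were the members, in each pathway list up to 4 called genes with the largest statistic (with none called, up to 3 with an unadjusted p under 0.05 and the 2 most abundant), and in each marker list the 3 most abundant and any called; most are named. Promoter windows are RefSeq's (GRCm38.p6), 250 bases before to 50 after a start; gene models are GENCODE M21. The adjustment and motif code was tested on simulated data. Coordinates are 1-based on mm10. Software was matplotlib 3.10.9, scipy 1.17.1, pandas 2.3.3 and numpy 2.4.6 under Python 3.11.15. Some items are not reported here.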

Additional observations from a re-analysis of the deposited data

How the results depend on the processing

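The count of called members was 1 at q thresholds of 0.1 and 0.01, over rows with at least 1 FPKM, and without rows of several symbols. It was 3 at an unadjusted p under 0.05 (Socs1, Stat2 and Socs3). Under the Benjamini-Yekutieli adjustment it was 0, but no row at all could pass there, given the smallest deposited p. It was also 0 with a normal p from the deposited statistic, which was larger than the deposited p in 99.7% of tested rows. At an unadjusted p under 0.05 the list counts were 9 for receptors and ligands, 1 for Janus kinases and adaptors, 1 for negative regulators, 7 for interleukin-4 targets and 3 for interleukin-6 and interleukin-10 targets. Rescaling to equal FPKM sums lowered every log2 fold change by the same amount (a shift of -0.10) and turned Stat6 to -0.0091. Pseudocounts of 0.1 and 1 and centring on the median turned no member's sign. The search for the IRF element was added after seeing the data. Leaving out each library was not run, since the table holds 1 value per group. No paired analysis was possible because the deposited values carry no replicate numbers.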
